A study of Homo sapiens with 12 samples.

Results

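The interleukin genes IL1B, IL1A, IL1RN, IL18, IL10, EBI3, IL32, IL16 and IL15 were taken from the mRNA-seq data by gene symbol, and all 9 were found among the 20003 genes used. Interleukins are secreted proteins by which blood cells signal to each other. The ligands of the IL-1 family (IL1A, IL1B and IL18) activate NF-κB through receptors that recruit MYD88, and IL1RN encodes the antagonist that occupies the IL-1 receptor without signalling. IL1B and IL18 are made as precursors that caspase-1 cleaves in the inflammasome. IL10 damps the output of myeloid cells through STAT3, EBI3 is the β chain that pairs with IL27 (p28) in interleukin-27 or with IL12A in interleukin-35, IL16 is a chemoattractant that binds CD4, IL15 sustains NK and memory T cells, and IL32 is an inflammatory cytokine found in lymphocytes and myeloid cells. In monocytes and macrophages, IL1B and IL10 are among the cytokines made on activation.

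The samples came from 2 human leukemia cell lines, NB4, an acute promyelocytic line with PML-RARα, and Kasumi-1, an AML line with AML1-ETO. In each line, 3 control samples received DMSO and 3 samples received 1 μM OGP46, 12 samples in all. The sample labels give an incubation of 48 h, while a legend in the study gives a longer one. OGP46 is a compound that the study tested as an inducer of AML cell differentiation, and the comparison of treated with control cells asks which genes accompany it. Each group is a single cell line in culture, and the labels do not say that the numbered samples were separate cultures, although the study describes its sequencing as representative of independent experiments. If they were not separate, p-values measure only technical spread. Expression was given as FPKM, fragment numbers scaled to exon length and to the mapped total of the sample, a unit that allows levels of different genes to be set side by side. Differences were tested with limma on log2(FPKM + 0.1), a scale that understates the change of genes below about 1 FPKM, and a gene was called at an adjusted p below 0.05 and a log2 difference of at least 0.58. With 3 samples against 3, an exact permutation test cannot go below p = 0.10, so the model across all genes is the test throughout.

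The lines were checked against their markers. RUNX1T1, CD34, KIT, POU4F1 and TRH were all lower in NB4 than in Kasumi-1, with summed levels of 0.563 to 3.60 FPKM in the NB4 controls and 263 to 299 FPKM in the Kasumi-1 controls. The promyelocyte granule genes MPO, ELANE, PRTN3, AZU1 and CTSG went against their use as NB4 markers, since 5 of 5 were lower in NB4 than in Kasumi-1, although MPO reached 2394 to 3323 FPKM in NB4. CD3D, a T cell gene, was at 13.5 to 20.5 FPKM and NKG7, a gene of cytotoxic lymphocytes, at 34.3 to 54.2 FPKM in the NB4 controls. Other genes of the T and NK cell list did not follow them. Of the 3 tested between the untreated lines, 2 were called higher and 1, CD8A, lower in NB4 (log2 difference -2.59). Over all genes tested, 22.7% were called higher and 29.7% lower. CD2, GNLY and KLRD1 were at 0 in the NB4 controls, and CD3E and CD3G did not exceed 0.0822 FPKM. The B cell and erythroid lists did not exceed 2.06 and 0.184 FPKM for any gene.

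The NB4 samples numbered 2 stood apart from the others. Of 11750 genes tested in NB4, 2520 (21.4%) were lowest in sample 2 among the controls and again among the OGP46 samples, and 4 of the 6 interleukin genes tested were (IL1B, EBI3, IL32 and IL16). In both lines, deviations of same-numbered control and OGP46 samples from their group means correlated. Over genes averaging at least 0.1 FPKM this was weak to moderate, at 0.197 to 0.622 in NB4 and 0.157 to 0.395 in Kasumi-1. In NB4 a pair of unlike numbers reached 0.224 there, above same-numbered pair 3. Over genes averaging at least 5 FPKM, same-numbered pairs correlated at 0.439 to 0.85 in NB4 and 0.416 to 0.621 in Kasumi-1. Unlike pairs then reached at most 0.289 in NB4 and 0.081 in Kasumi-1. The study names no pairing, so a block by sample number is inferred from these same data, and blocked p-values rest on it. Each result is also given from a fit with that block where it changes the call. Fits without both NB4 samples numbered 2 were chosen after seeing the data. For genes that were lowest in those samples, such a fit removes spread of the same genes, so its p-values are a description. Single genes went in both directions with OGP46, with a median log2 difference over the genes tested of 0.18 in NB4 and 0.05 in Kasumi-1. Centring the NB4 values brought that median to -0.04, and values relative to it are given for the members that were called.

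**Figure D1:**
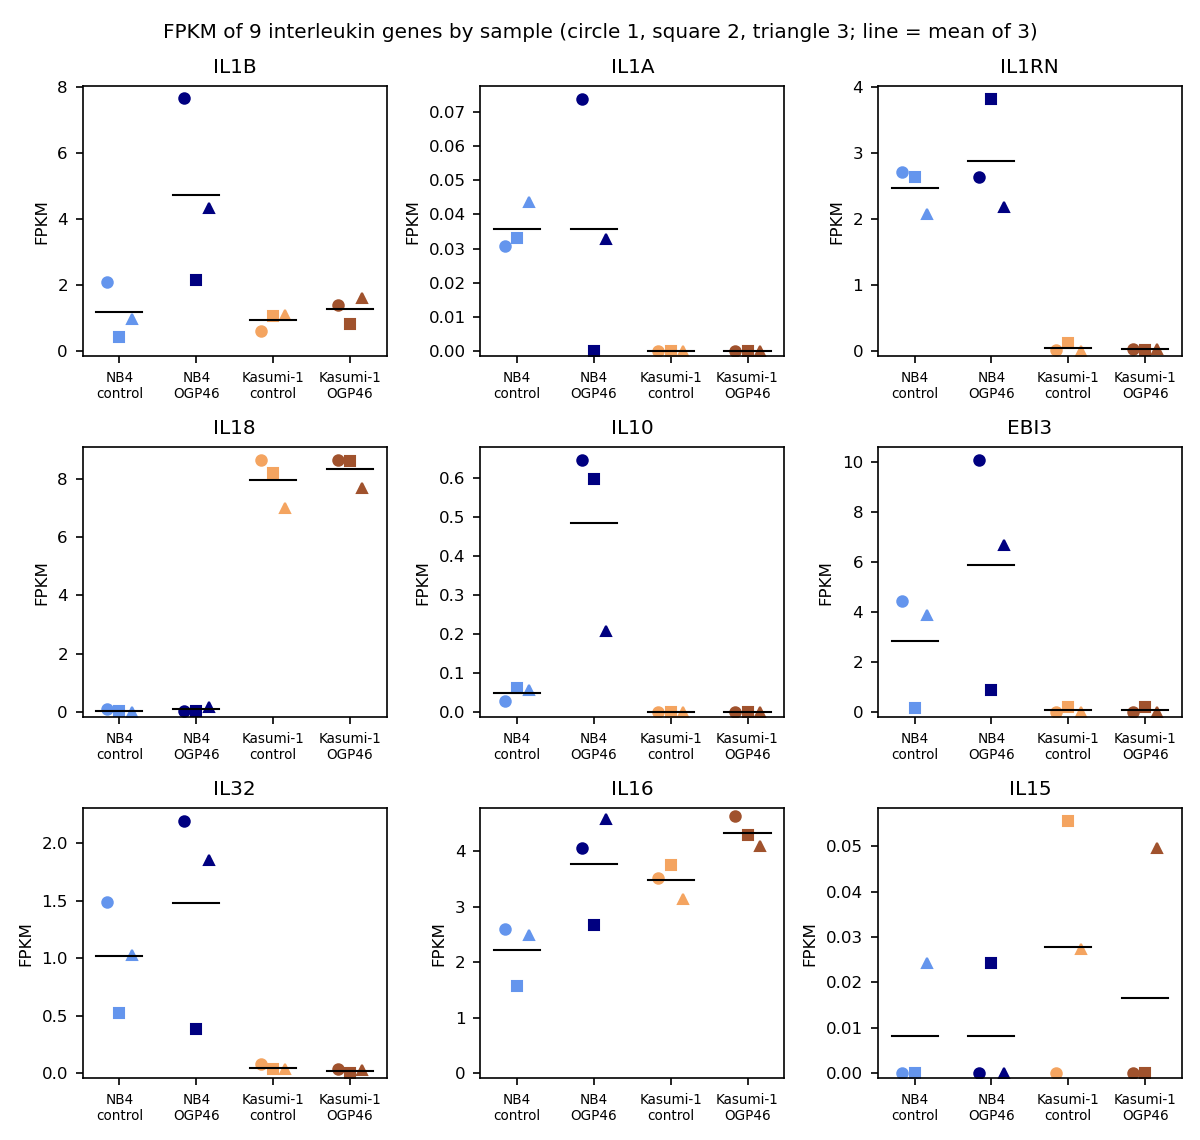
FPKM (y axis, linear, a separate scale for each gene) of the 9 interleukin genes in the 12 samples, by cell line and treatment (x axis). Circles, squares and triangles are samples 1, 2 and 3, and lines are group means. IL18 lies between 7.00 and 8.66 FPKM in Kasumi-1 and at 0.180 FPKM or less in NB4, IL1RN shows the opposite order, and the 3 NB4 samples with OGP46 lie above the 3 controls for IL1B, IL10 and IL16.

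The genes IL1B, IL10 and EBI3 had the largest log2 differences with OGP46 among the members tested in NB4, and the sequence before their start sites is shown because it differs in which binding motifs of inflammatory factors it holds. The windows come from RefSeq (GRCh38.p14), which held 14 windows for 7 of the 9 members. Letters are given 5′ to 3′ on the strand of the gene, only as far as the first base of the gene in GENCODE 29, and capitals mark a motif match. IL1B (chr2:112836904-112837029, minus strand) holds a match to the C/EBP motif TTGCNNAA, IL10 (chr1:206772495-206772744, minus strand) holds none, and EBI3 (chr19:4229273-4229497, plus strand) holds a κB match followed by a match to the AP-1 motif TGANTCA.
IL1B: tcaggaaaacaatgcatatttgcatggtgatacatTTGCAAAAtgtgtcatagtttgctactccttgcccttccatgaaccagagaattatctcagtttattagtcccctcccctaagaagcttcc
IL10: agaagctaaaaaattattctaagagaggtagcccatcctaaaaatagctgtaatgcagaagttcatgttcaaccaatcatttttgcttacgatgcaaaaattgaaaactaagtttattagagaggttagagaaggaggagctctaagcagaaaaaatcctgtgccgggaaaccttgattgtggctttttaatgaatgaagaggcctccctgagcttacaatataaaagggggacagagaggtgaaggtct
EBI3: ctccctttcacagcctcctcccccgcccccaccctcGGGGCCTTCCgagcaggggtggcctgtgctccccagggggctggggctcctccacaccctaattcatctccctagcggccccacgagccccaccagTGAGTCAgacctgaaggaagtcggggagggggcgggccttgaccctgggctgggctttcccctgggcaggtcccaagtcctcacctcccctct

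The C/EBP match of IL1B begins 215 bases before its RefSeq start, and the κB and AP-1 matches of EBI3 begin 214 and 118 bases before theirs. Of the motifs searched on both strands in windows of 300 bases (250 before and 50 after the start), the κB consensus was found in 11.3% of all 35116 RefSeq windows, the AP-1 motif in 7.71%, the C/EBP motif in 10.5% and the PU.1 motif GAGGAAG in 13.6%. The window of IL10 that begins at its GENCODE start held a single C/EBP match 20 bases into the transcript, and another of its 3 windows held an AP-1 match. IL32 held overlapping κB matches beginning 99 and 98 bases before one of its starts. IL1RN held an AP-1 match before one of its starts, the overlapping windows of IL1A held AP-1 matches, and the windows of IL16 held none of the motifs. A match describes letters in the window and is no evidence of binding.

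In the untreated lines, the levels of most interleukin genes differed. Of the 6 members tested there, IL1RN, EBI3 and IL32 were higher in NB4, IL18 and IL16 were lower, and IL1B did not pass the test. Over all 12302 genes tested, 22.7% were called higher and 29.7% lower in NB4, so differences between the lines are common. IL1RN, EBI3, IL32 and IL18 averaged below 0.1 FPKM in one of the lines and passed the filter only through the other, so their being called follows in part from the filter, and the counts are a description. As these are bulk samples, fewer cells that express a gene and less RNA of it per cell cannot be told apart.

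IL18, the caspase-1 substrate that drives interferon-γ, was the highest member in Kasumi-1. Its level was 8.65, 8.21 and 7.00 FPKM in the Kasumi-1 controls, 7.95 ± 0.851 (SD, n = 3). In the NB4 controls, IL18 was at 0.0870, 0.0472 and 0 FPKM, so that the lines did not overlap and the log2 difference was -5.84 (SE 0.23, limma adjusted p = 8.48e-08). The traces of IL18 in NB4 can be read beside genes that Kasumi-1 expresses and NB4 hardly does: the 50 such genes with the lowest ratio stood at a median of 0.102%, 0.396% and 1.34% of their Kasumi-1 level in NB4 controls 1 to 3, where IL18 stood at 1.07%, 0.58% and 0%. In NB4 OGP46 samples 1 to 3 the medians were 0.0851%, 0.0873% and 0.147%, and IL18 stood at 0.515%, 0.507% and 2.21%. All these IL18 values lie near 0 FPKM, and their source was not tested. The gene lies on chr11:112143251-112164117 (GRCh38, minus strand, GENCODE 29).

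IL1RN, the IL-1 receptor antagonist, was expressed in NB4 and near 0 in Kasumi-1. The NB4 controls had 2.71, 2.64 and 2.07 FPKM, 2.47 ± 0.348 (SD, n = 3), and the Kasumi-1 controls 0.0156, 0.122 and 0 FPKM. The groups did not overlap, with a log2 difference of 4.22 (SE 0.29, limma adjusted p = 1.83e-06). The highest Kasumi-1 value, in control 2, was 4.55% of the NB4 level. In that sample, the 50 genes expressed in NB4 that had the lowest Kasumi-1 level relative to it stood at a median of 1.75%. This was the highest median of the 6 Kasumi-1 samples. These 50 genes were picked for their low level in the same samples, so a gene that was not picked that way can be expected to lie above them. The source of the IL1RN value was not tested. IL1RN lies on chr2:113107214-113134016 (plus strand).

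IL32 was also a gene of the NB4 samples. Its level was 1.49, 0.526 and 1.03 FPKM in the NB4 controls, 1.02 ± 0.484 (SD, n = 3), against at most 0.0812 FPKM in any Kasumi-1 sample. The log2 difference between the control lines was 2.83 (SE 0.33, limma adjusted p = 5.17e-05). An exon of IL32 (chr16:3065297-3082192, plus strand) overlaps the small RNA gene RNU1-125P on the same strand, and reads there cannot be assigned with certainty.

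EBI3 had the highest mean of the members in the NB4 controls and the widest spread, at 4.43, 0.174 and 3.86 FPKM, 2.82 ± 2.31 (SD, n = 3). In Kasumi-1 it was listed at 0 in both groups except in the samples numbered 2, at 0.188 FPKM in the control and 0.195 FPKM with OGP46. The log2 difference between the control lines was 3.58 (SE 0.97, limma adjusted p = 0.00846), but the groups overlapped, because NB4 control 2 lay below Kasumi-1 control 2. The partner chains of EBI3 were low: IL27 was listed at 0 in all 12 samples and IL12A did not exceed 0.189 FPKM.

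IL16 was expressed in both lines. Its level was 2.60, 1.57 and 2.49 FPKM in the NB4 controls, 2.22 ± 0.568, and 3.52, 3.75 and 3.14 FPKM in the Kasumi-1 controls, 3.47 ± 0.304 (SD, n = 3 each). The groups did not overlap, and the log2 difference was -0.65 (SE 0.19, limma adjusted p = 0.0109). This call was lost without NB4 control 2, where the difference was -0.43, with a pseudocount of 1, and under TPM scaling, median centring and quantile normalization. Exons of IL16 overlap STARD5 and AC103858.1 on the opposite strand (chr15:81159575-81314058, plus strand). The kit preserves strand, but whether the counting used it is not given in the sources used here.

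IL1B, the secreted form of interleukin-1 in myeloid cells, had 2.10, 0.436 and 0.984 FPKM in the NB4 controls, 1.17 ± 0.850, and 0.599, 1.07 and 1.11 FPKM in the Kasumi-1 controls, 0.925 ± 0.283 (SD, n = 3 each). The groups overlapped, and the log2 difference of 0.13 (SE 0.45, 95% interval -0.91 to 1.16, limma adjusted p = 0.810) did not pass the test. IL10 and IL1A were listed at 0 in all 6 Kasumi-1 samples and lay below 0.1 FPKM in the NB4 controls, and IL15 did not exceed 0.0557 FPKM in any sample, so these were not tested between the lines.

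The order of the members therefore differed between the lines. By mean FPKM it ran EBI3, IL1RN, IL16, IL1B and IL32 in the NB4 controls, each overlapping the next, with a gap below IL32. In the Kasumi-1 controls it ran IL18, IL16 and IL1B without overlap between neighbours, followed by genes below 0.2 FPKM. With OGP46, the order in Kasumi-1 began with the same genes, and in NB4 IL1B came after EBI3, again overlapping its neighbours.

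With OGP46, IL10 was the member called in NB4, and IL1B, EBI3 and IL16 were called as well once same-numbered samples were paired. Of the 6 members tested, 1 was called higher and 0 lower, where 1.45% and 0.111% of all 11750 genes tested were called higher and lower. Paired by the replicate block, 4 were called higher and 0 lower, against 5.06% and 1.15% of all genes. The median log2 difference of the 6 members was 1.00, beside 0.18 over all genes tested. IL1A, IL15 and IL18 lay below the filter of a mean of 0.1 FPKM in NB4. IL10 passed that filter only through the OGP46 samples, where it is high, so the counts and the median that include it are a description.

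IL10, the anti-inflammatory cytokine of macrophages, was almost absent from the NB4 controls, at 0.0280, 0.0619 and 0.0565 FPKM, 0.0488 ± 0.0182. With OGP46 it was at 0.648, 0.597 and 0.207 FPKM, 0.484 ± 0.241 (SD, n = 3 each). The groups did not overlap, and the ratio of the means was 9.92, with same-numbered ratios of 23.1, 9.65 and 3.66. The log2 difference was 1.87 (SE 0.37, limma adjusted p = 0.0434), and 1.65 after median centring, where the adjusted p was 0.169. With no filter the adjusted p was 0.0859. The call sat close to the threshold: leaving out any 1 of the 6 samples gave adjusted p-values of 0.0522 to 0.161 with log2 differences of 1.64 to 2.29. With the replicate block the adjusted p was 0.00228. Without both samples numbered 2, a fit chosen after seeing the data, it was 0.0172 (difference 1.76). The level itself stayed low, under 1 FPKM in every sample. The gene lies on chr1:206767602-206772494 (minus strand).

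IL1B was at 7.67, 2.14 and 4.33 FPKM in NB4 with OGP46, 4.71 ± 2.78 (SD, n = 3), against 1.17 ± 0.850 in the controls given above. Each OGP46 sample lay above each control, although OGP46 sample 2 exceeded control 1 only narrowly. Same-numbered samples differed by 3.64, 4.89 and 4.41 times, a narrower spread than that of the levels. The log2 difference was 1.97 (SE 0.56, limma adjusted p = 0.0817) and was not called. With the replicate block the SE was 0.12 and the adjusted p 3.27e-06, and after median centring with the block the difference was 1.75 (adjusted p = 0.000566). Without both NB4 samples numbered 2 and without a block, the difference was 1.92 (adjusted p = 0.000520). That fit was chosen after seeing the data and leaves out the samples where IL1B was lowest, so its p-value is a description. IL1B lies on chr2:112829751-112836903 (minus strand), on the chromosome that also carries IL1A and IL1RN.

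EBI3 was at 10.1, 0.896 and 6.69 FPKM with OGP46, 5.89 ± 4.65 (SD, n = 3), and the groups overlapped because sample 2 was low on both sides. Same-numbered samples differed by 2.28, 5.14 and 1.73 times. The log2 difference was 1.27 (SE 1.17, limma adjusted p = 0.479), and it was -0.05 without NB4 control 2, so that 1 control decides the value of the unpaired fit. With the replicate block the SE was 0.17 and the adjusted p 0.000603, and after median centring the blocked difference was 1.05 (adjusted p = 0.0194). Without both samples numbered 2, where EBI3 was lowest, the unpaired difference was 0.97 (adjusted p = 0.00385). That fit was chosen after seeing the data, and its p-value is a description. EBI3 lies on chr19:4229498-4237531 (plus strand).

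**Figure D2:**
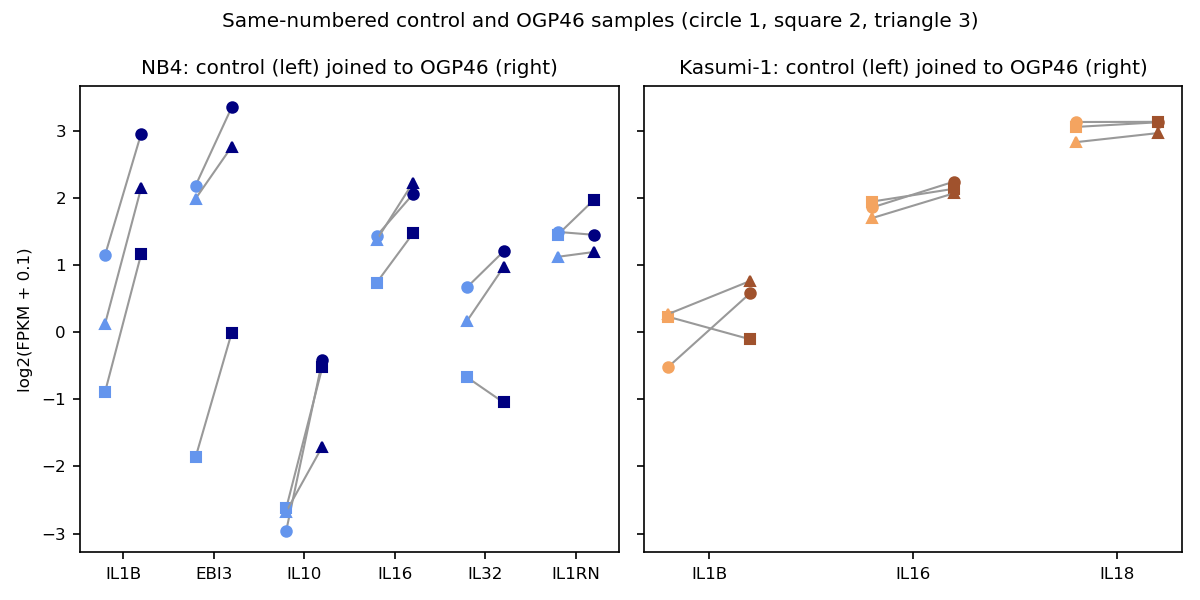
log2(FPKM + 0.1) (y axis) of same-numbered control (left) and OGP46 (right) samples joined by lines, for members tested within NB4 and within Kasumi-1 (x axis, gene). In NB4 all 3 lines go up for IL1B, EBI3, IL10 and IL16, although EBI3 of pair 2 (squares) begins at 0.174 FPKM, while pair 2 goes down for IL32. In Kasumi-1 pair 2 goes down for IL1B.

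IL16 was at 4.05, 2.67 and 4.58 FPKM in NB4 with OGP46, 3.77 ± 0.986 (SD, n = 3), and the lowest of these lay just above the highest control. Same-numbered ratios were 1.56, 1.70 and 1.84. The log2 difference of 0.73 (SE 0.24, limma adjusted p = 0.105) was not called without the block and was with it (SE 0.11, adjusted p = 0.00115). After median centring the blocked difference was 0.51 (adjusted p = 0.0108), below the size that was required. Without both samples numbered 2, where IL16 was lowest, and without a block, the difference was 0.74 (adjusted p = 0.0114). That fit was chosen after seeing the data, and its p-value is a description.

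IL32 and IL1RN were not called in NB4. IL32 was at 2.20, 0.384 and 1.85 FPKM with OGP46, 1.48 ± 0.964 (SD, n = 3), higher than its same-numbered control in samples 1 and 3 and lower in sample 2. The log2 difference was 0.32 (SE 0.58, limma adjusted p = 0.729) and fell to -0.05 without control 2. With the block and without both samples numbered 2 it was 0.66 (adjusted p = 0.0155), a fit of 4 samples with 1 residual degree of freedom of its own. IL1RN was at 2.63, 3.82 and 2.19 FPKM, 2.88 ± 0.846 (SD, n = 3), and overlapped its controls, with a log2 difference of 0.18 (SE 0.21, 95% interval -0.29 to 0.65, limma adjusted p = 0.562) that turned to -0.04 after median centring. The agonist IL1B and its antagonist IL1RN thus stood at 1.17 and 2.47 FPKM in the NB4 controls and at 4.71 and 2.88 FPKM with OGP46, on the scale of group means.

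The other members stayed near 0 in NB4. IL1A, the cell-associated form of interleukin-1, was at 0.0308, 0.0330 and 0.0437 FPKM in the controls and at 0.0739, 0 and 0.0328 FPKM with OGP46, and the groups overlapped. IL18 was at 0.0419, 0.0413 and 0.180 FPKM with OGP46, and IL15 at no more than 0.0243 FPKM in any NB4 sample. IL1A lies on chr2:112773915-112784590 (minus strand) and IL15 on chr4:141636599-141733987 (plus strand).

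In Kasumi-1 cells, no interleukin gene was called with OGP46. Of the 3 members tested by limma, 0 were called and 1 (IL16) had an unadjusted p under 0.05, where 0.0169% of all 11835 genes tested were called higher and 0.0169% lower. With the replicate block 0 were called and 1 (IL16) had an unadjusted p under 0.05, where 0.27% and 0.346% of all genes were called higher and lower. The median log2 difference of the 3 members was 0.31, beside 0.05 over all genes tested.

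IL16 was at 4.62, 4.29 and 4.09 FPKM in Kasumi-1 with OGP46, 4.33 ± 0.270 (SD, n = 3), above all 3 controls. The log2 difference was 0.31 (SE 0.10, 95% interval 0.10 to 0.53, limma adjusted p = 0.170). This interval lies wholly below the size that was required for a call. IL18 was at 8.66, 8.62 and 7.70 FPKM, 8.33 ± 0.544 (SD, n = 3), with a log2 difference of 0.07 (SE 0.09, 95% interval -0.14 to 0.28, limma adjusted p = 0.752). IL1B was at 1.39, 0.829 and 1.59 FPKM, 1.27 ± 0.396 (SD, n = 3), and overlapped its controls, with same-numbered ratios of 2.32, 0.774 and 1.44 and a log2 difference of 0.42 (SE 0.26, 95% interval -0.17 to 1.01, limma adjusted p = 0.465). IL10 and IL1A remained at 0 with OGP46, and IL1RN, IL32 and IL15 did not exceed 0.0496 FPKM.

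**Figure D3:**
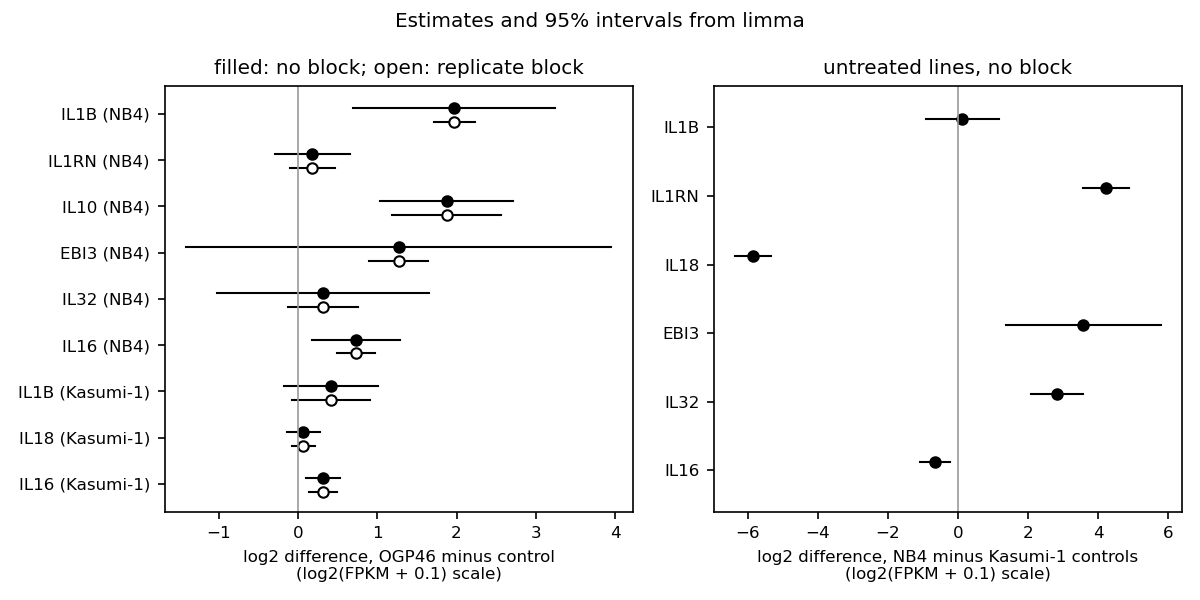
log2 differences (x axis, log2(FPKM + 0.1) scale) with 95% intervals from limma for the members tested (y axis), with OGP46 minus control on the left and NB4 minus Kasumi-1 controls on the right. Filled points have no block and open points the replicate block, which narrows the interval of EBI3 in NB4 from -1.41 to 3.95 to 0.90 to 1.64.

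Whether the response differed between the lines was tested as an interaction in a model of the 12 samples. Of the 7 members tested by limma, 0 were called and 2 had an unadjusted p under 0.05 (IL10 and IL1B), where 0% of all 12309 genes tested were called higher and 0% lower, with 1225 higher and 123 lower at an unadjusted p under 0.05. With the replicate block 3 members were called higher in NB4, against 1.81% of all genes called higher and 0.114% lower. These were IL1B, with a difference between the lines of 1.55 (SE 0.30, adjusted p = 0.0342), IL10, with 1.87 (SE 0.39, adjusted p = 0.0447), and EBI3, with 1.26 (SE 0.27, adjusted p = 0.0496). IL10 was listed at 0 in all Kasumi-1 samples and EBI3 in 4 of 6, and both passed the filter through NB4 alone, so their differences repeat the NB4 change and do not compare responses of 2 lines that express the gene. Of the 3, IL1B is the member expressed in both lines. All 3 lie close to the threshold. With the block and median centring, 0 of the 7 were called, and with the block and without both NB4 samples numbered 2, 0 of the 6 that were then tested were. IL1B then had an adjusted p of 0.0896.

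The receptors of the members were measured in the same samples. Of 14 receptor genes, 12 were tested in NB4. With OGP46 1 was called higher and 0 lower, against 1.45% and 0.111% of all genes tested. This was IL10RB, the shared chain of the IL-10 receptor, at 13.5, 12.6 and 10.2 FPKM in the controls and 19.5, 16.6 and 19.1 FPKM with OGP46 (log2 difference 0.60, SE 0.12, limma adjusted p = 0.0451). The IL10RB difference lay close to the size required for a call, beside a median of 0.18 over all genes tested in NB4. With TPM scaling, median centring or quantile normalization and no block, 0 genes were called in NB4, so this call was lost. The replicate block gave 3 called higher, now with IL10RA and IL18R1, against 5.06% of all genes. IL10RA, the chain that binds IL-10, was at 2.68, 0.439 and 1.99 FPKM in the controls and 8.56, 1.48 and 6.35 FPKM with OGP46 (log2 difference 1.61, blocked adjusted p = 6.42e-06, adjusted p = 0.188 without the block). It was low in both samples numbered 2, as IL1B was. In Kasumi-1 IL10RA did not exceed 0.117 FPKM and was not tested. The blocked difference of its response between the lines was 1.68 (limma adjusted p = 0.00741), where 0 genes were called without the block. IL10RA passed the filter of that model through NB4 alone, so this difference repeats the NB4 change.

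The receptors of IL-1 and IL-18 were less even. IL1R1, the signalling receptor of IL-1, was at 0.0408 to 0.142 FPKM in the NB4 controls and 0.182 to 0.241 FPKM with OGP46 (log2 difference 0.83, limma adjusted p = 0.119), and the decoy IL1R2 did not exceed 0.0155 FPKM in any sample. IL1RAP, the accessory chain, was at 2.82 to 3.47 FPKM in the NB4 controls and 4.80 to 7.00 FPKM in the Kasumi-1 controls. IL18R1 was at 0.0881 to 0.158 FPKM in the NB4 controls and 0.256 to 0.539 FPKM with OGP46 (log2 difference 1.05, blocked adjusted p = 0.0233). In Kasumi-1, where IL18 is expressed, IL18R1 was at 0.507 to 0.592 FPKM in the controls and its partner IL18RAP at 0.0715 to 0.165 FPKM. IL15RA lay between 0.317 and 1.05 FPKM over all samples. Of the 10 receptor genes tested in Kasumi-1, 0 were called by limma without the block (2 at an unadjusted p under 0.05) and 0 with it (3 at an unadjusted p under 0.05).

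Of the 9 genes tested that process and release IL-1β and IL-18, 4 were called higher and 2 lower in untreated NB4. Over all genes tested, 22.7% were called higher and 29.7% lower. CASP1, NLRP3 and PYCARD of the inflammasome were higher in NB4, the line with IL18 near 0. NLRC4 was about equal, at a mean of 0.749 FPKM in the NB4 controls and 0.770 FPKM in the Kasumi-1 controls. CASP1, which cleaves both precursors, was at 4.11 to 5.60 FPKM in the NB4 controls and 0.363 to 0.497 FPKM in the Kasumi-1 controls (log2 difference 3.22, limma adjusted p = 2.65e-07), and NLRP3, the sensor of the inflammasome, at 7.00 to 7.38 against 0.795 to 1.24 FPKM (2.82, adjusted p = 5.89e-07). Their adaptor PYCARD was also higher in NB4 (1.66), while GSDMD, which forms the pore of release, was lower (-1.97), as was IL18BP, the secreted inhibitor of IL-18 (-0.80). Of the 9 genes of this list tested in NB4 with OGP46, 0 were called by limma (3 at an unadjusted p under 0.05). With the block 1 was called higher, against 5.06% of all genes. This was NLRC4, at 1.13, 0.553 and 0.563 FPKM in the controls and 2.33, 0.912 and 1.30 FPKM with OGP46 (log2 difference 0.90, adjusted p = 0.00231). CASP1 and NLRP3 had log2 differences with OGP46 of 0.22 and 0.14 in NB4 (limma adjusted p = 0.332 and 0.348).

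Downstream of the IL-1 receptor, 14 of 14 genes were tested in NB4, with 0 called by limma (2 at an unadjusted p under 0.05). With the block 3 were called higher, against 5.06% of all genes. These were IRAK2, a kinase of the receptor complex (log2 difference 0.85, adjusted p = 0.000986), and the NF-κB subunit genes NFKB2 (1.03, adjusted p = 0.000171) and RELB (0.78, adjusted p = 0.00270). NFKB2 was at 2.65, 0.636 and 2.82 FPKM in the controls and 4.96, 1.48 and 6.19 FPKM with OGP46, low again in sample 2 of both groups. Its response differed between the lines with the block (0.82, limma adjusted p = 0.0387), where 0 genes were called without it. Over all genes in NB4, 730 were called with the block and 391 with the block and median centring. Centred values of IRAK2, NFKB2 and RELB are not given here. Of the 10 genes of JAK-STAT signalling, 9 were tested in NB4 and 0 called by limma with or without the block (6 and 3 at an unadjusted p under 0.05). In Kasumi-1, limma called 0 of the 9 processing genes, 0 of the 14 genes of IL-1 receptor signalling and 0 of the 9 JAK-STAT genes tested, where 1, 3 and 2 had an unadjusted p under 0.05. With the block these counts were again 0, with 2, 4 and 2 at an unadjusted p under 0.05.

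Among 36 other interleukin and related ligands, 19 were listed at 0 in all samples and 4 were tested in NB4, so that most interleukin genes were not expressed in either line at a level that could be compared. CXCL8, the neutrophil chemoattractant interleukin-8, was at 8.19, 1.67 and 7.69 FPKM in the NB4 controls and 29.5, 7.20 and 27.8 FPKM with OGP46 (log2 difference 1.91, limma adjusted p = 0.121, with the block 4.71e-07). In Kasumi-1 it was at 0.788, 1.53 and 3.41 FPKM in the controls and 3.67, 3.70 and 7.00 FPKM with OGP46 (1.44, adjusted p = 0.164, with the block 0.00505). CXCL8 was the ligand of this list that was called with the block in NB4 and in Kasumi-1. Of the 5 ligands tested between the untreated lines, 0 were called higher and 2 lower in NB4 (TSLP and IL12A). Over all genes tested, 22.7% were called higher and 29.7% lower. TSLP averaged 0 FPKM in the NB4 controls and 0.525 FPKM in the Kasumi-1 controls, and IL12A 0.0496 and 0.169 FPKM. Both passed the filter only through Kasumi-1, so their direction follows from the filter and the calls are a description.

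**Figure D4:**
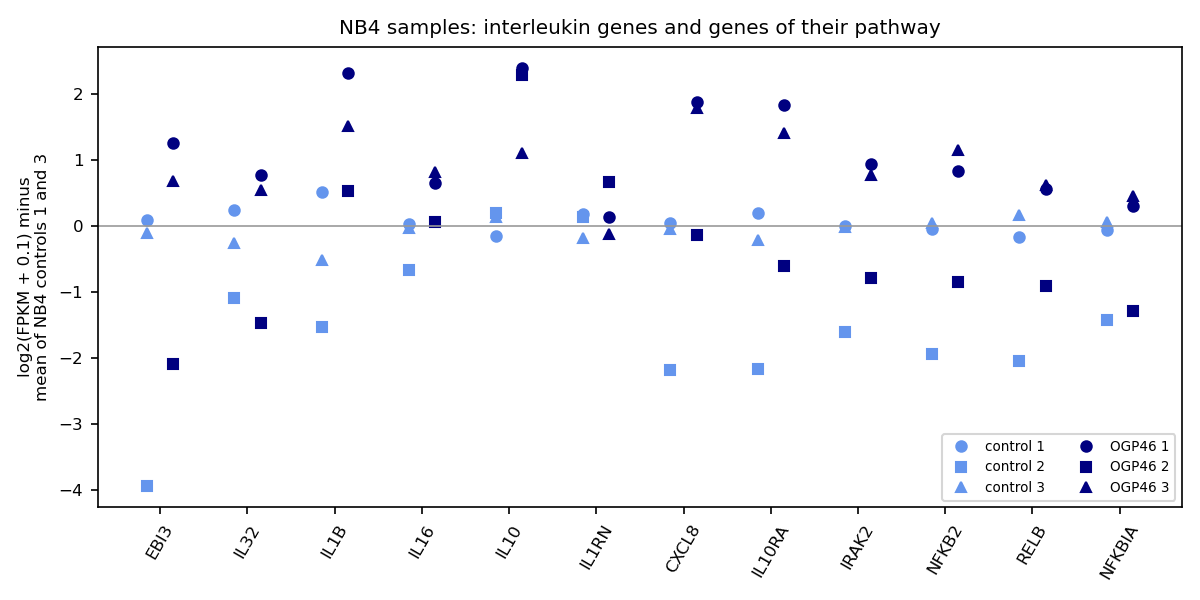
NB4 samples for the 6 members tested and for genes of their pathway named in the text (x axis), as log2(FPKM + 0.1) minus the mean of NB4 controls 1 and 3 (y axis). Light points are controls, dark points OGP46, and squares are the samples numbered 2. The square lies lowest in both groups for EBI3, IL32, IL1B, IL16, CXCL8, IL10RA, IRAK2, NFKB2, RELB and NFKBIA, and not for IL10 or IL1RN.

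The low level of the NB4 samples numbered 2 was shared by several of these genes. Relative to the mean of samples 1 and 3, EBI3 stood at 0.042 times in control 2 and 0.107 times in OGP46 sample 2, and IL1B at 0.283 and 0.356 times. NFKB2 stood at 0.232 and 0.266 times, RELB at 0.215 and 0.338 times and NFKBIA, the NF-κB inhibitor that NF-κB itself induces, at 0.372 and 0.313 times. IL10 stood at 1.47 and 1.40 times and IL1RN at 1.10 and 1.59 times. Of the 14 genes of IL-1 receptor signalling 7 were lowest in sample 2 of both groups, and 8 of the 9 tested JAK-STAT genes, against the 21.4% of all genes. Of the receptors 5 of 12 were, and of the processing genes 2 of 9 (22.2%). The JAK-STAT genes lay closer to samples 1 and 3 than EBI3 and NFKB2 did, with TYK2 at 0.904 and 0.909 times and STAT5A at 0.594 and 0.626 times.

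Some monocyte and macrophage genes were higher with OGP46 in NB4. Of the 10 in that list 8 were tested, 4 were called higher and 6 with the block, and 0 were called lower. Over all genes tested, 1.45% were called higher and 0.111% lower, and with the block 5.06% and 1.15%. FCGR1A (log2 difference 0.24) and LYZ (-0.01) were called in neither fit. With TPM scaling, median centring or quantile normalization and no block, 0 genes were called in NB4. ITGAM, the CD11b integrin chain of myeloid cells, was at 2.90, 2.40 and 2.91 FPKM in the controls and 5.89, 5.09 and 6.81 FPKM with OGP46, and C5AR1, ITGAX and CD68 were the others called without the block. The summed level of the list was 287.4 to 409.9 FPKM in the controls and 290.8 to 398.1 FPKM with OGP46, most of it LYZ. The macrophage receptors CD163 and MRC1 were listed at 0 in all 6 NB4 samples. In Kasumi-1, 0 of the 6 genes of the list that were tested were called by limma (2 at an unadjusted p under 0.05). The summed level of the T and NK cell list was 48.3 to 70.9 FPKM in the NB4 controls and 62.3 to 101 FPKM with OGP46, with 0 of 4 genes called by limma without the block (2 at an unadjusted p under 0.05) and CD3D called with it, while CD2 and GNLY were at 0 in all 6 NB4 samples and CD3E did not exceed 0.0608 FPKM. The promyelocyte granule genes had the opposite sign in NB4 with OGP46. Of the 5 tested, 0 were called by limma without the block (2 at an unadjusted p under 0.05) and 4 were called lower with it, CTSG (-1.45, adjusted p = 1.21e-05), PRTN3 (-1.36, adjusted p = 1.39e-05), AZU1 (-0.62, adjusted p = 0.000639) and ELANE (-2.17, adjusted p = 0.00234). Their summed level was 2605 to 3945 FPKM in the controls and 1586 to 2812 FPKM with OGP46. Of the progenitor markers of Kasumi-1, CD34 was also called lower with the block (-1.42, adjusted p = 0.0361). ELANE and CD34 were highest in NB4 control 3, at 14.5 and 1.31 FPKM. That sample also had the most signal of Kasumi-1 genes, but this signal is measured on genes high in Kasumi-1 and low in NB4. ELANE and CD34 are themselves such genes, so the observation is not independent, and its cause was not tested. The part of these genes in the differences of IL1B, IL10, EBI3 and IL16 was not tested.

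The genes most like each member over the 12 samples were found by the root mean square difference of profiles centred on their means, among 10789 genes, as a description. IL16 had the closest neighbours, with RPS6KC1 at 0.136, SLC2A3 at 0.138 and RAB8B at 0.138. IL1RN was nearest to ZNF765 at 0.234, and IL32 to CD36 at 0.324 and OAS1 at 0.350. IL18 was nearest to NEURL1 at 0.339, and IL1B to KLHDC7B at 0.390, then MMRN2 at 0.518 and TLR6 at 0.535. EBI3 had the most distant neighbours, NOD2 at 0.611, the chemokine gene CCL3 at 0.626 and CHST2 at 0.656. The profiles of IL18, IL1RN, IL32 and EBI3 are dominated by the difference between the lines, which they share with many genes. IL10, IL1A and IL15 did not reach a mean of 1 FPKM in any group and were not compared.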

How the data were processed

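Poly(A) mRNA of 12 samples was sequenced from stranded libraries. The authors deposited 1 FPKM value per gene symbol and sample. Per the labels, their processing named Trimmomatic, HISAT2, Cufflinks and HTSeq and the build hg38; versions and annotation are not given in the sources used here. FPKM already account for exon length and library size. Depth is unknown, so counting error cannot be given and only the spread between samples measures the error. Of 20030 rows, 27 with symbols turned into dates were left out, which left 20003 genes.

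The members and gene lists were chosen with earlier results of these data known. All 9 members were named, and from the lists the genes that passed a test and the direct partners of members. NFKBIA was named by its call between the untreated lines. For likeness, the 3 nearest genes averaging 0.5 FPKM or more were taken. From the deposited FPKM, log2(FPKM + 0.1) was fitted with limma 3.58.1 in R 4.3.3, with a mean-variance trend, for genes that averaged 0.1 FPKM or more over the samples fitted. p-values were Benjamini-Hochberg adjusted over all genes tested. The interaction had no minimum size. The fits were tested on simulated data.

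The study names no pairing. Over genes averaging at least 0.1 FPKM, deviations of same-numbered samples from their group means correlated at 0.355, 0.622 and 0.197 in NB4. In Kasumi-1 they correlated at 0.218, 0.157 and 0.395. Every same-numbered pair lay above 0.1, while other pairs lay between -0.468 and 0.224. The numbers were therefore taken to pair the samples, from the data alone. Other settings were pseudocounts of 1 and 0.01, other filters and scalings, array weights, a joint model and each sample left out; leaving out the NB4 samples numbered 2 together was chosen after seeing the data. Positions are from GENCODE 29 (GRCh38) and promoter sequences from RefSeq (GRCh38.p14). Protein sequences were not used here, and 1 gene of the marker lists is not reported here.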

Additional observations from a re-analysis of the deposited data

Results flagged for a closer look

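The response to OGP46 differed between the cell lines for 3 of 7 members when tested as an interaction with the replicate block by limma. Over all genes tested, 1.81% were called higher in NB4 and 0.114% lower. The difference, NB4 minus Kasumi-1 on the log2(FPKM + 0.1) scale, was 1.554 for IL1B (adjusted p = 0.0342), 1.874 for IL10 (adjusted p = 0.0447) and 1.258 for EBI3 (adjusted p = 0.0496). All 3 of 3 NB4 pairs were higher with OGP46 for each of these genes, and these are the pairs that the blocked fit used. In Kasumi-1 the same-numbered ratios of IL1B were 2.32, 0.774 and 1.44. With the block and without both NB4 samples numbered 2, 0 of the 6 members then tested were called. Without the block the adjusted p-values were 0.454, 0.135 and 0.746, and with the block and median centring they were 0.0630, 0.107 and 0.115. IL10 was listed at 0 in all Kasumi-1 samples and EBI3 in 4 of 6, and both entered the model only through NB4, so their differences repeat the NB4 change.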

How the results depend on the processing

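In NB4 with OGP46, 1 member was called. This number was 0 with a pseudocount of 1, no filter, a minimum of 1 FPKM (which leaves IL10 out), TPM scaling, median centring or quantile normalization. It was 4 with the replicate block, 3 with the block and median centring and 3 in the joint model. Leaving out 1 sample gave 0 to 2. Leaving out both samples numbered 2 gave 4, and 5 with the block, which has 1 residual degree of freedom of its own. Over all genes 183 were called (170 higher, 13 lower), 117 with a pseudocount of 1, 4 with no filter, 0 with TPM scaling, median centring or quantile normalization, 730 with the block, 391 with the block and median centring (188 higher, 203 lower), 498 in the joint model, 0 to 396 with 1 sample left out, and 543 without the samples numbered 2. The cause of these changes was not tested.

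For Kasumi-1, 0 members were called under every alternative run, while the count over all genes moved from 4 to between 0 and 93. Between the untreated lines 5 members were called, and 4 with a pseudocount of 1, a minimum of 1 FPKM, TPM scaling, median centring or quantile normalization. With 1 sample left out it was 4 without NB4 control 2, where IL16 was lost, and 5 otherwise. Scaling moved the split of all genes called there from 2790 higher and 3659 lower to 3592 and 2989 with TPM scaling. For the interaction, 0 members were called, 3 with the replicate block and 0 to 1 with 1 sample left out (IL10, without NB4 OGP46 sample 3). Over all genes the interaction gave 0, 14 with a pseudocount of 1, 237 with the block and 144 with the block and median centring.

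Some directions turned, those of EBI3 from a large difference that rests on NB4 control 2. In NB4, IL1RN went to -0.037 with median centring, with quantile normalization and with the block and median centring, and to -0.034 without OGP46 sample 2. EBI3 went to -0.048 without control 2, and IL32 to -0.049 without control 2 and -0.097 without OGP46 sample 1. In Kasumi-1, IL18 went to -0.019 without control 3. Between the untreated lines, IL1B went to -0.385 without NB4 control 1 and -0.129 without Kasumi-1 control 1. In the interaction, IL1RN went to -0.013 with a pseudocount of 0.01 and -0.067 without Kasumi-1 control 2, IL18 to -0.005 with a pseudocount of 1 and -0.054 without NB4 OGP46 sample 3, and EBI3 to -0.059 without NB4 control 2. With 1 sample left out in turn, these differences reached at most 0.355 for IL1RN, 2.29 for EBI3 and 1.028 for IL32 in NB4, 0.131 for IL18 in Kasumi-1, 0.635 for IL1B between the untreated lines, and 0.508 for IL1RN, 0.482 for IL18 and 2.278 for EBI3 in the interaction. The replicate block changed no call of a member other than those given in the report. Depth is unknown, and values below about 0.1 FPKM limit what can be said of IL1A, IL15 and IL10.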
